A study of Homo sapiens with 12 samples.

Results

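The 10 genes described here are regulators of the epithelial-mesenchymal transition (EMT) and a filament gene that marks its end state: SNAI1, SNAI2, ZEB1, ZEB2, TWIST1, TWIST2, VIM, GRHL2, OVOL1 and ESRP1. They were taken by gene name from the table of raw counts, which holds 58735 genes. All 10 were found, and 7 of them carried enough counts to be tested. The libraries are polyA RNA-seq of the C4.2B line, human prostate cancer cells that came from LNCaP and grow without androgen, in 4 arms of 3 libraries each. DMSO cells received vehicle throughout. AKTi cells received the AKT inhibitor ipatasertib at 0.25 μM for 24 hours. EZH2i cells received the EZH2 inhibitor tazemetostat at 1 μM for 6 days and then for the same 24 hours, and combination cells received both agents on that schedule. All 4 arms spent the final 24 hours in medium with 10% charcoal-stripped FBS, so every value below, DMSO included, is from cells low in androgen. The libraries come from plates of 1 cell line, and p-values therefore measure the spread between plates.

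Libraries held 14133755 to 22276417 counts, and no library stood apart from its arm (lowest correlation within an arm 0.986). Libraries of 1 arm differed by more than sampling noise, so all 12 were counted as replicates. Of the 16646 genes that passed the filter on low counts, the edgeR quasi-likelihood test with Benjamini-Hochberg adjustment called 42.5% with AKTi, 64.1% with EZH2i and 73.2% with both agents, each against DMSO. A gene being called is thus common in these data. The identity of the cells was checked with marker lists. KLK3, the luminal gene for prostate-specific antigen, had 1372 ± 29.6 CPM (counts per 1000000 counts, scaled by library; SD, n = 3) in DMSO, 2342 ± 30.9 with AKTi, 2890 ± 125 with EZH2i and 3941 ± 52.6 with both. The 4 basal markers summed to at most 0.919 CPM in any library, and KRT5 was at 0 in all 12. The 5 endothelial markers summed to 2.16 to 7.38 CPM and the 5 leukocyte markers to 0.14 to 1.69 CPM over all libraries.

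EMT is the program by which epithelial cells loosen their junctions and take on a migratory, fibroblast-like state. Zinc-finger factors of the SNAI and ZEB families and basic helix-loop-helix factors of the TWIST family drive it, in large part by repressing CDH1, which encodes the junction protein E-cadherin. GRHL2 and OVOL1 oppose it as transcription factors that keep epithelial genes on and repress ZEB1, and ESRP1 opposes it as a splicing factor that maintains the epithelial isoforms of many transcripts. VIM encodes vimentin, the intermediate filament of mesenchymal cells. EZH2 is the catalytic subunit of Polycomb repressive complex 2, which places the repressive H3K27me3 mark, and AKT is a kinase downstream of PI3K.

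In every arm GRHL2 and ESRP1 had the 2 highest mean levels per length among the members, and ZEB2 and TWIST2 the lowest. Per length, in TPM (counts per base of transcript, scaled to 1000000 per library), DMSO cells had mean levels of 101 for GRHL2, 86.2 for ESRP1, 7.76 for OVOL1, 7.29 for SNAI1, 5.29 for VIM, 0.249 for SNAI2, 0.116 for TWIST1 and 0.0553 for ZEB1, with ZEB2 and TWIST2 at 0. GRHL2 (98.7 to 103 TPM) lay above ESRP1 (83.6 to 90.6 TPM) in all 3 DMSO libraries. The neighbours OVOL1 (7.71 to 7.84 TPM) and SNAI1 (6.02 to 9.62 TPM) overlapped, and so did SNAI1 and VIM (4.8 to 6.23 TPM). SNAI2 and TWIST1 also overlapped, at 0.129 to 0.478 TPM and 0 to 0.348 TPM. Among the 16646 tested genes, the DMSO level of GRHL2 stood at percentile 89.8 and that of VIM at percentile 35.6. The order changed with treatment: in the combination ESRP1 came first at a mean of 153 TPM, before GRHL2 at 125 TPM and VIM at 34.6 TPM.

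**Figure D1:**
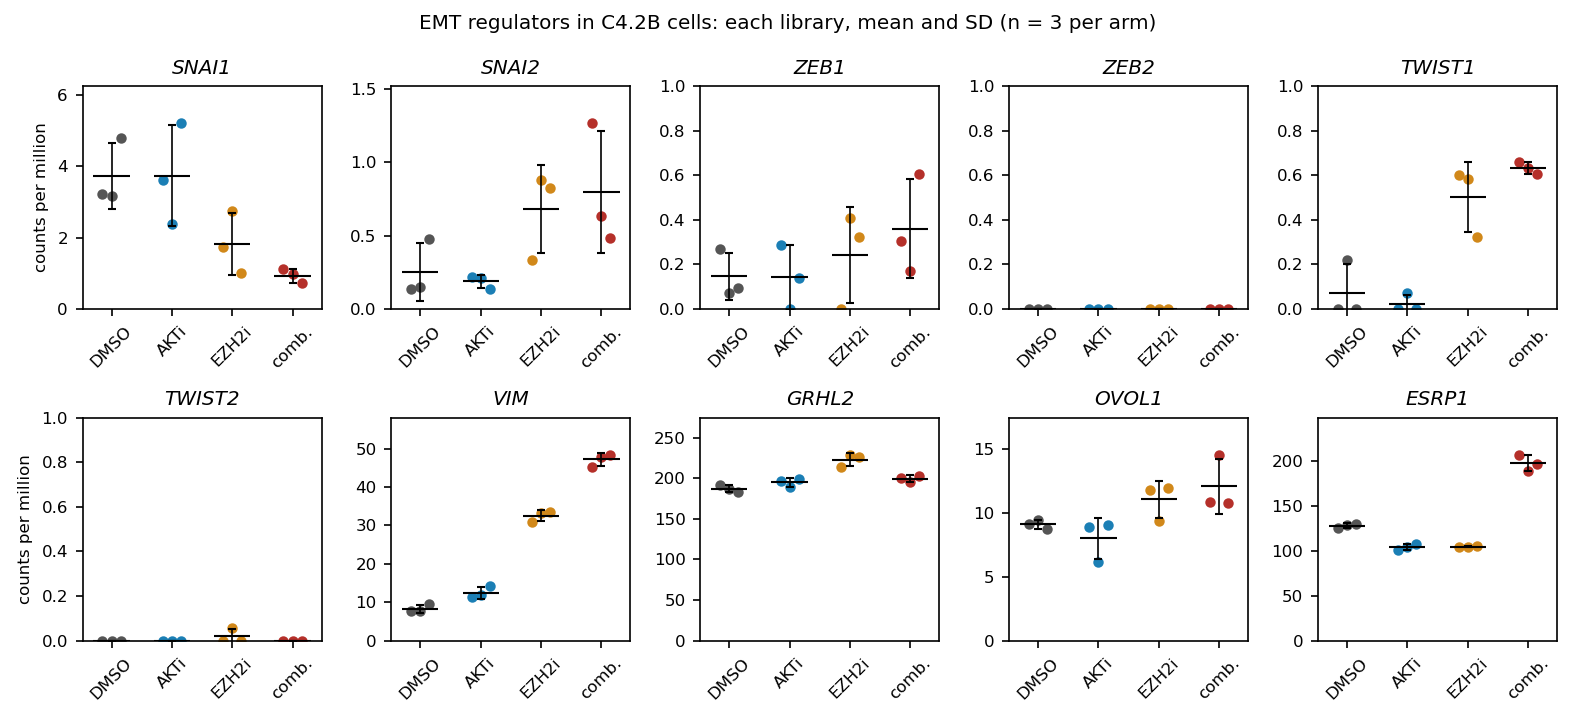
Level of each of the 10 EMT regulators in CPM (vertical axis, linear and starting at 0, with its own range in each panel) in the DMSO, AKTi, EZH2i and combination (comb.) arms. Points are libraries, horizontal lines are means and bars are the SD of 3 libraries. VIM rises from 7.67 to 9.5 CPM in DMSO to 45.4 to 48.5 CPM in the combination, ESRP1 is highest in the combination, and ZEB2 and TWIST2 lie at or next to 0 in every arm.

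ZEB2 and TWIST2 were silent in every arm, and ZEB1 was near silent. A gene was called silent when no library had more than 3 counts, and near silent when it had more but failed the filter. ZEB2, the zinc-finger repressor at 2:144364364-144524583 (hg38, minus strand), had 0 counts in all 12 libraries, which allows at most 0.0151 CPM over the series (3 counts of the total, counting error only). TWIST2 (2:238848032-238910543, plus strand), a helix-loop-helix factor related to TWIST1, had 1 count in EZH2i replicate B and 0 in the other 11 libraries. Neither treatment brought either gene to a level that could be measured at this depth.

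ZEB1 (10:31318495-31529814, plus strand), a repressor of CDH1 and of the miR-200 family, had 46 counts over the 12 libraries. In replicates A, B and C it had 4, 1 and 2 counts in DMSO, 4, 0 and 2 in AKTi, 0, 7 and 7 in EZH2i and 6, 3 and 10 in the combination. The arms overlapped. Pooled CPM is the summed counts of an arm over its summed scaled library sizes. Against the 7 counts of DMSO, the ratio of pooled CPM was 0.994 in AKTi (95% exact counting interval 0.276 to 3.45), 1.83 in EZH2i (0.692 to 5.36) and 2.49 in the combination (1 to 7.02). When the filter was loosened to let ZEB1 in, its adjusted p was 0.36 for the combination and 0.62 for EZH2i. ZEB1 shares 1953 bases with ZEB1-AS1, a transcript of the opposite strand that had 1543 counts in the series, and the sources used here do not say whether the counting used strand.

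The start-site windows of the silent and near-silent factors and of VIM are shown together because VIM rose in every treated arm while ZEB2 and TWIST2 stayed at or near 0. Each is 300 bases of RefSeq sequence on GRCh38.p14, from 250 bases before to 50 after the start, printed 5′ to 3′ on the gene's own strand with every CG dinucleotide in capitals. Windows from the RefSeq promoter table are printed for 4 of the 10 members, and this count does not say which others the table held. The ZEB1 window is the one of 7 nearest to the start in the count table. The ZEB2 window is placed around a RefSeq start that lies 4464 bases inside the gene as the count table gives it.
VIM, chr10:17227991-17228290, plus strand: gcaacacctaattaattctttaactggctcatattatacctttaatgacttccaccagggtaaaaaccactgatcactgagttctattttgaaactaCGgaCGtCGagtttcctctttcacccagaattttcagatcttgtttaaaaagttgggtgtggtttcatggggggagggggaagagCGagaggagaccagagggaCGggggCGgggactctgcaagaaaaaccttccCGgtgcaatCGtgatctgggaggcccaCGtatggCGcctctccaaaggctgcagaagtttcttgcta
ZEB1, chr10:31318167-31318466, plus strand: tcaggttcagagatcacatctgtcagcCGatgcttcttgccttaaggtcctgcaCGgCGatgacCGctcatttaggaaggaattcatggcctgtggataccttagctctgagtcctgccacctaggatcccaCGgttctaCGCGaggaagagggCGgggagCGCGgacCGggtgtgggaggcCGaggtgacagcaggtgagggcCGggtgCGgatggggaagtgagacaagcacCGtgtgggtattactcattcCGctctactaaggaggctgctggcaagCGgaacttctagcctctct
ZEB2, chr2:144520070-144520369, minus strand: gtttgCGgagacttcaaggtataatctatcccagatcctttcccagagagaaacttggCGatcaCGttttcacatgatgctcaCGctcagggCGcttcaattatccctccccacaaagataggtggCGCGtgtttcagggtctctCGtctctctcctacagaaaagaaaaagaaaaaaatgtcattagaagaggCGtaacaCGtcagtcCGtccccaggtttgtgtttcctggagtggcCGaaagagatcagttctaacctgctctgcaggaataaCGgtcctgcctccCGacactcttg
TWIST2, chr2:238847835-238848134, plus strand: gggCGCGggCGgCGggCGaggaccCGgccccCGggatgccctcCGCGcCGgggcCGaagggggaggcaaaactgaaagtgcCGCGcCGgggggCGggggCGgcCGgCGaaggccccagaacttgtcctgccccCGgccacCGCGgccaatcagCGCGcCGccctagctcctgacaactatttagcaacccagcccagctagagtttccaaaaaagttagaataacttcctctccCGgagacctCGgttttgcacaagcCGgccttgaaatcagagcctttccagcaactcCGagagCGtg
The windows held 10 CG dinucleotides in VIM, 17 in ZEB1, 14 in ZEB2 and 29 in TWIST2, against a median of 14 over all 35116 windows of the table. Their GC content was 48.0%, 58.3%, 49.0% and 66.7%, against a median of 58.7%. TWIST2, which stayed silent, had the most CG dinucleotides of the 4, and VIM had the fewest. The hexamer CAGGTG, an E-box that SNAI and ZEB proteins bind, was searched together with its reverse complement CACCTG, so that both strands were covered. It was found 1 time in the ZEB1 window and not in the other 3, and 20.6% of all windows held it. No binding was measured in these libraries.

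SNAI1 (20:49982999-49988886, plus strand), a zinc-finger repressor of CDH1, fell with EZH2i and further with the combination. Its counts in replicates A, B and C were 48, 43 and 100 in DMSO, 50, 34 and 75 in AKTi, 26, 47 and 22 in EZH2i and 22, 17 and 12 in the combination. On the CPM scale the means were 3.73 ± 0.921 (SD, n = 3) in DMSO, 3.74 ± 1.42 with AKTi, 1.83 ± 0.872 with EZH2i and 0.940 ± 0.198 with both. All 3 EZH2i and all 3 combination libraries lay below the DMSO range, whereas AKTi overlapped it. The combination reached 0.252 of DMSO (log2 difference -1.99, SE 0.341, adjusted p = 2.9e-06) and EZH2i 0.478 (-1.06, SE 0.313, adjusted p = 0.0033). With AKTi alone the log2 difference was -0.015 (95% interval -0.615 to 0.585, adjusted p = 0.97), a value that turned to 0.045 when libraries were scaled by size alone. The combination was also below EZH2i (-0.92, SE 0.366, adjusted p = 0.037), but these arms overlapped, and without EZH2i replicate B the log2 difference was -0.50 with an adjusted p of 0.33. That call was also lost without combination replicate B (adjusted p = 0.064) or C (0.12), by upper quartile scaling (0.055) and when these 2 arms were fitted alone (0.067).

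SNAI2 and TWIST1 had more counts in the combination than in DMSO, from levels close to the detection limit. Both passed the filter on low counts only through libraries that had received EZH2i, since none of the 6 others reached its level, so their tests below describe these libraries and are no separate support for a rise. SNAI2 (8:48917604-48921740, minus strand), a close relative of SNAI1, had 2, 2 and 10 counts in replicates A, B and C of DMSO, 3, 3 and 2 in AKTi, 5, 15 and 18 in EZH2i and 25, 11 and 8 in the combination. Its mean was 0.254 ± 0.196 CPM (SD, n = 3) in DMSO and 0.795 ± 0.416 CPM in the combination, and these arms did not overlap on that scale, the lowest combination library being at 0.4833 and the highest DMSO library at 0.4795. The combination was 2.88-fold above DMSO (log2 1.52, SE 0.599, adjusted p = 0.022). That call was lost without combination replicate A (log2 1.00, adjusted p = 0.21) and without DMSO replicate A (1.23, 0.1) or B (1.24, 0.1), and leaving out 1 library at a time gave log2 values of 1.00 to 2.44. With DMSO and the combination fitted alone, SNAI2 did not pass the filter and had no value. In EZH2i the log2 difference from DMSO was 1.31 (SE 0.609, adjusted p = 0.059), which passed the threshold when libraries were scaled by size alone (0.036) and without DMSO replicate C (2.23, adjusted p = 0.02) or EZH2i replicate A (1.58, 0.034). With AKTi it was -0.53 (SE 0.778, adjusted p = 0.62).

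TWIST1 (7:19020991-19117672, minus strand) was detected in every library that had received EZH2i and in 2 of the 6 that had not. Replicates A, B and C held 0, 3 and 0 counts in DMSO, 0, 1 and 0 in AKTi, 9, 10 and 7 in EZH2i and 13, 11 and 10 in the combination. The EZH2i and combination ranges lay wholly above those of DMSO and AKTi. Against the 3 counts of DMSO, the ratio of pooled CPM was 7.93 in EZH2i (95% exact counting interval 2.43 to 41) and 10.4 in the combination (3.27 to 53), with adjusted p of 0.0051 and 0.001 by edgeR. Without DMSO replicate C the EZH2i call was lost (log2 2.13, adjusted p = 0.055). Leaving out 1 library at a time gave fitted log2 values of 2.13 to 6.06 in EZH2i and 2.48 to 6.42 in the combination, which depend on the prior count, and with DMSO and EZH2i fitted alone TWIST1 did not pass the filter and had no value. AKTi had 1 count (ratio 0.387, interval 0.00736 to 4.81, adjusted p = 0.59). The level after treatment stayed low, at a mean of 0.879 TPM in EZH2i and 1.18 TPM in the combination. The combination and EZH2i arms had 0.632 ± 0.0275 and 0.503 ± 0.157 CPM (SD, n = 3), a difference that did not pass the test (adjusted p = 0.65).

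VIM (10:17228259-17237593, plus strand) rose in every treated arm, most in the combination. Its counts in replicates A, B and C were 114, 105 and 198 in DMSO, 157, 169 and 204 in AKTi, 463, 571 and 727 in EZH2i and 895, 830 and 802 in the combination. In CPM the libraries of DMSO were at 7.67, 7.75 and 9.5, those of AKTi at 11.4, 11.8 and 14.2, those of EZH2i at 31.0, 33.4 and 33.4 and those of the combination at 45.4, 47.9 and 48.5. No 2 arms overlapped. VIM was 1.48-fold above DMSO in AKTi (log2 0.57, SE 0.118, adjusted p = 0.00013), 3.88-fold in EZH2i (1.96, SE 0.105, adjusted p = 2.5e-18) and 5.62-fold in the combination (2.49, SE 0.104, adjusted p = 3.3e-22). The combination exceeded EZH2i 1.45-fold (0.53, SE 0.0885, adjusted p = 4.4e-06) and AKTi 3.78-fold (1.92, SE 0.0999, adjusted p = 7.5e-19). Even so, VIM in the combination, at 34.6 TPM, remained below GRHL2 and ESRP1 in the same cells. In a bulk library, more cells with VIM and more VIM per cell cannot be told apart.

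VIM-AS1, a transcript of the opposite strand (10:17214239-17229985) that shares 1727 bases with VIM, also rose in EZH2i and the combination. It had 8, 9 and 27 counts in replicates A, B and C of DMSO, 11, 13 and 17 in AKTi, 32, 37 and 68 in EZH2i and 76, 55 and 55 in the combination. Its log2 difference from DMSO was 1.51 in EZH2i (SE 0.334, adjusted p = 0.00015), 1.98 in the combination (SE 0.326, adjusted p = 1.4e-06) and 0.15 in AKTi (SE 0.389, adjusted p = 0.8). Because the strand setting is not given, reads of VIM and VIM-AS1 over the shared bases cannot be told apart. The 9 fibroblast markers summed to 6.47 to 9.56 CPM in DMSO, 7.67 to 9.18 in AKTi, 18.9 to 20.8 in EZH2i and 12.3 to 16.5 in the combination, most of it COL1A1. DCN, LUM, PDGFRA, THY1 and FAP had at most 8 counts in any library, and 3 of the 9 markers could be tested. The fibroblast sum was higher in EZH2i than in the combination, and its part in the VIM result was not tested.

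GRHL2 (8:101492432-101669726, plus strand), the grainyhead-like factor that holds epithelial junction genes on, kept a high level in all arms. In replicates A, B and C the counts were 2851, 2535 and 3826 in DMSO, 2716, 2700 and 2865 in AKTi, 3198, 3921 and 4917 in EZH2i and 3956, 3383 and 3365 in the combination. The means were 187 ± 4.25 CPM (SD, n = 3) in DMSO, 195 ± 5.18 with AKTi, 223 ± 7.9 with EZH2i and 200 ± 4.19 with both. EZH2i lay above all other arms and was 1.19-fold above DMSO (log2 0.25, SE 0.0521, adjusted p = 6.8e-05). In the combination the log2 difference from DMSO was 0.09 (95% interval -0.015 to 0.197, adjusted p = 0.12), and with AKTi it was 0.06 (interval -0.05 to 0.164, adjusted p = 0.41). The combination value depends on scaling. Its log2 difference was 0.29 (adjusted p = 7.5e-06) by library size and 0.28 (1.2e-05) by upper quartile, where the median of all genes moved from 0.06 to 0.26 and 0.25, and it was 0.16 (0.0053) over genes with at least 10 counts in every library.

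OVOL1 (11:65787022-65797219, plus strand), a zinc-finger repressor of ZEB1, rose slightly in the combination. Replicates A, B and C held 136, 128 and 183 counts in DMSO, 123, 88 and 130 in AKTi, 177, 161 and 261 in EZH2i and 215, 253 and 179 in the combination. The combination libraries, at 10.9, 14.6 and 10.8 CPM, all lay above the DMSO range of 8.78 to 9.44 CPM, while AKTi and EZH2i overlapped it. The combination was 1.33-fold above DMSO (log2 0.41, SE 0.149, adjusted p = 0.014), a call lost without combination replicate B (0.25, adjusted p = 0.17) and without DMSO replicate C (0.37, 0.053). The log2 difference was 0.28 in EZH2i (SE 0.15, adjusted p = 0.096), which passed by library size (0.43, adjusted p = 0.013), by upper quartile (0.41, 0.02) and without EZH2i replicate B (0.39, 0.035). It was -0.18 in AKTi (SE 0.159, adjusted p = 0.39). OVOL1-AS1, whose 1818 bases lie inside OVOL1 on the other strand, had 83 counts in the series and was not tested.

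ESRP1 (8:94641074-94707466, plus strand), the epithelial splicing factor, fell with each agent given alone and rose with the pair. Its counts in replicates A, B and C were 1863, 1743 and 2723 in DMSO, 1400, 1487 and 1552 in AKTi, 1557, 1784 and 2291 in EZH2i and 4091, 3291 and 3254 in the combination. In CPM the means were 128 ± 2.6 (SD, n = 3) in DMSO, 104 ± 3.32 with AKTi, 105 ± 0.566 with EZH2i and 198 ± 8.89 with both. All 6 single-agent libraries lay below the DMSO range and all 3 combination libraries above it. AKTi reached 0.815 of DMSO (log2 -0.30, SE 0.056, adjusted p = 4.1e-05) and EZH2i 0.816 (-0.29, SE 0.0554, adjusted p = 1.7e-05). The combination was 1.54-fold above DMSO (0.63, SE 0.0542, adjusted p = 6.9e-13). The single agents differed from each other by 0.002 on the log2 scale (95% interval -0.112 to 0.116, adjusted p = 0.98).

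Of the 7 tested members, 2 were called in AKTi against DMSO (1 higher, VIM, and 1 lower, ESRP1), beside 42.5% of all genes. In EZH2i 5 were called (SNAI1 and ESRP1 lower, TWIST1, VIM and GRHL2 higher), beside 64.1%, and in the combination 6 (SNAI1 lower, the others but GRHL2 higher), beside 73.2%. The combination differed from AKTi in 6 members, with SNAI1 lower and SNAI2, TWIST1, VIM, OVOL1 and ESRP1 higher, beside 64.2% of all genes. It differed from EZH2i in 4, with VIM and ESRP1 higher and SNAI1 and GRHL2 lower, beside 46.7%. EZH2i differed from AKTi in 6, with SNAI1 lower and all others but ESRP1 higher, beside 50.4%. These comparisons share libraries, SNAI2 and TWIST1 were tested only because of their counts after EZH2i, and with 7 genes the counts are given as a description. In the combination against DMSO SNAI1 was the 1 member called lower, while VIM, OVOL1 and ESRP1 were called higher. Over all genes in that comparison, 6320 were called higher and 5866 lower. SNAI2 and TWIST1, also called higher, are set apart from those members because of how they passed the filter. Some of the pairwise calls rest on single libraries. For EZH2i against AKTi, SNAI2 lost its call without any 1 of 5 libraries (all but EZH2i replicate A of these 2 arms, adjusted p 0.053 to 0.089), SNAI1 without AKTi replicate C (0.079) or EZH2i replicate C (0.056) and OVOL1 without AKTi replicate B (0.16) or EZH2i replicate C (0.078). For the combination against AKTi, SNAI2 lost its call without combination replicate A (0.087). The lower GRHL2 in the combination than in EZH2i (-0.16, SE 0.0519, adjusted p = 0.01) was not called by library size (-0.11, adjusted p = 0.086), by upper quartile (-0.10, 0.12) or without EZH2i replicate C (-0.13, 0.091). Over all genes the split of calls depends on scaling, with 50.8% of EZH2i calls higher by the main scaling and 61.3% by library size. For the members, no called direction against DMSO turned under any scaling tried.

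**Figure D2:**
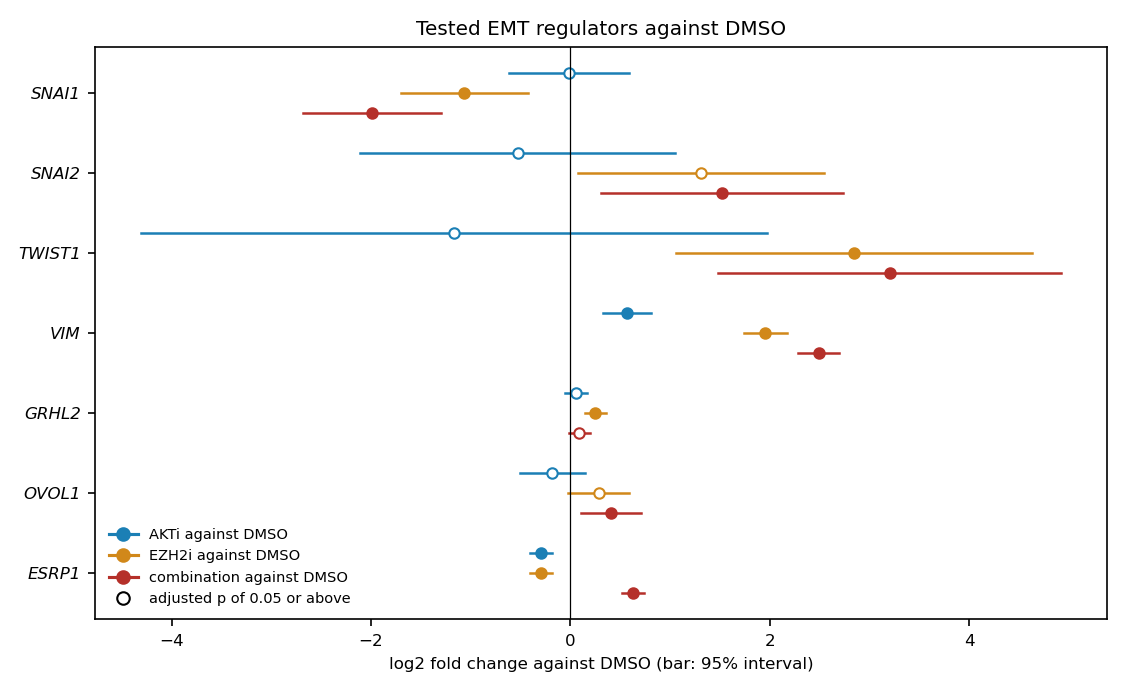
Log2 fold change against DMSO (horizontal axis) of the 7 tested members in AKTi, EZH2i and the combination, from the edgeR fit over 12 libraries. Points are estimates, bars are 95% intervals and open points have an adjusted p of 0.05 or above; the intervals of SNAI2 and TWIST1 are wide and their counts are low, and SNAI1 lies left of 0 in EZH2i and the combination while VIM lies right of 0 in all 3 arms.

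Whether AKT inhibition acted differently in cells already under EZH2 inhibition was asked with the interaction term, which is the log2 effect of AKTi with EZH2i less its log2 effect without. It was called for 2 of 7 members, ESRP1 and GRHL2, beside 28.2% of all genes. Adding AKTi lowered ESRP1 without EZH2i (-0.30) and raised it with EZH2i (0.92, SE 0.0546, adjusted p = 1.1e-16), a gap of 1.22 (SE 0.0782, 95% interval 1.06 to 1.37, adjusted p = 6.2e-15). For GRHL2 the values were 0.06 and -0.16, a gap of -0.22 (SE 0.0739, adjusted p = 0.024). The GRHL2 gap lost its call when any of 6 libraries was left out, with adjusted p of 0.1 without DMSO replicate B, 0.068 and 0.14 without AKTi replicates B and C, 0.053 and 0.13 without EZH2i replicates B and C and 0.057 without combination replicate B. For VIM the effects of AKTi were 0.57 and 0.53, and the gap was -0.04 (95% interval -0.334 to 0.259, adjusted p = 0.89). For SNAI1 the gap was -0.91 (interval -1.86 to 0.05, adjusted p = 0.16), which passed without EZH2i replicate C (-1.20, adjusted p = 0.048), and for OVOL1 0.30 (interval -0.132 to 0.741, adjusted p = 0.32). SNAI2 (adjusted p = 0.61) and TWIST1 (0.55) had too few counts for a narrow interval.

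**Figure D3:**
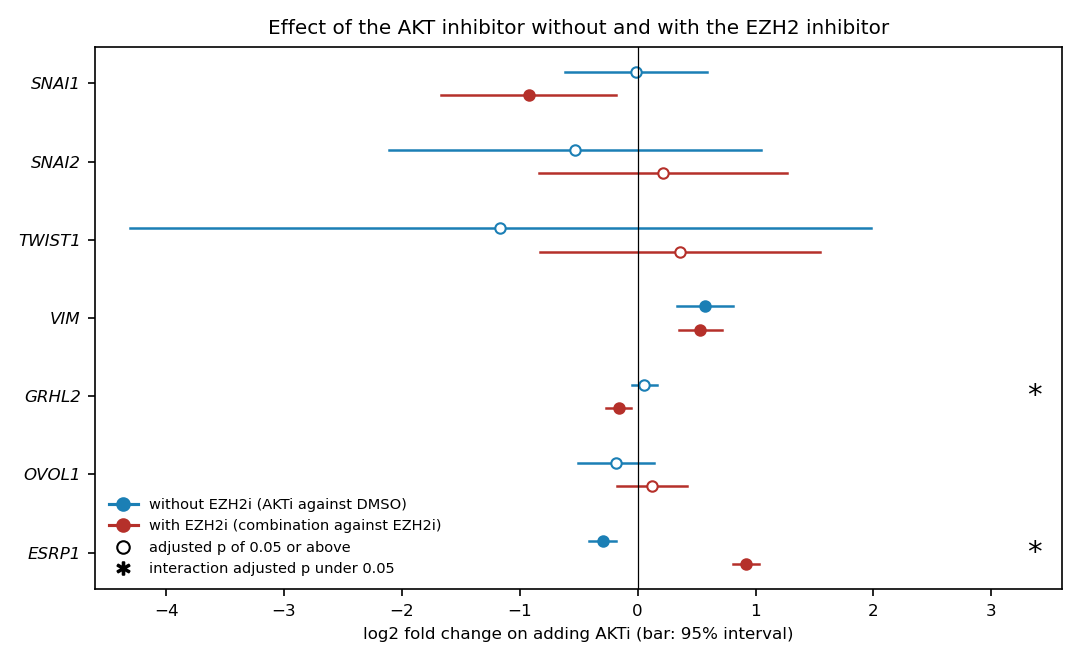
Log2 fold change on adding AKTi (horizontal axis) without EZH2i (AKTi against DMSO) and with EZH2i (combination against EZH2i) for the 7 tested members. Bars are 95% intervals, open points have an adjusted p of 0.05 or above, and a star marks an interaction with an adjusted p under 0.05; the ESRP1 points lie on opposite sides of 0, while the VIM points nearly coincide.

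The genes around the members were read from lists of adhesion genes, mesenchymal genes, related factors and partners. CDH1, the junction gene that SNAI, ZEB and TWIST factors repress, had 757 ± 37.8 CPM (SD, n = 3) in DMSO, 706 ± 23.5 with AKTi, 871 ± 20.5 with EZH2i and 742 ± 20.9 with both. It rose in EZH2i (log2 0.20, SE 0.0515, adjusted p = 0.00083), and its log2 difference in the combination was -0.03 (adjusted p = 0.63), or 0.17 (adjusted p = 0.0032) by library size. Of the 37 epithelial adhesion and polarity genes, all tested, 17 rose and 5 fell in AKTi (42.5% of all tested genes were called), 28 rose and 6 fell in EZH2i (64.1%), and 24 rose and 5 fell in the combination (73.2%), with a median log2 difference of 0.44 in the combination against 0.06 for all genes. These counts depend on scaling. By library size 23 rose and 3 fell in AKTi, and 32 rose and 3 fell in the combination, where the median of all genes was 0.26. The interaction of these 37 genes was called positive for 6 and negative for 18 and not called for 13, beside 28.2% of all genes called, of which 1779 were positive and 2909 negative. Among them DSP, which encodes the desmosomal plaque protein desmoplakin, rose by 2.29, ELF3, an epithelial ETS factor, by 2.04 and PRSS8, the membrane protease prostasin, by 1.93. PKP3, a desmosomal plakophilin, fell by 0.78, MAL2 by 0.67 and CDS1 by 0.57. EPCAM, the epithelial adhesion molecule, fell by 0.29 (SE 0.0572, adjusted p = 2.3e-05), a call lost by library size (-0.10, adjusted p = 0.12).

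Of 35 mesenchymal genes other than VIM, 22 were tested. In AKTi 9 rose and 1 fell, beside 42.5% of all genes called. In EZH2i as in the combination 17 rose and 1 fell, beside 64.1% and 73.2%, with a median of 1.12 in the combination against 0.06 for all genes. CDH2, which encodes N-cadherin, had 1 count in the series and MMP2 none. FN1, the matrix protein fibronectin, was already high at 1118 ± 78.6 CPM (SD, n = 3) in DMSO and reached 5899 ± 65.7 in the combination (log2 2.40, SE 0.0573, adjusted p = 1.4e-29). COL5A2, a fibrillar collagen, rose by 4.46 (95% interval 3.88 to 5.05) from 6, 11 and 6 counts in replicates A, B and C of DMSO. THBS1, thrombospondin 1, rose by 4.19 from 493, 539 and 773 counts. TNC, tenascin C, went from 2 counts in the 3 DMSO libraries to 440 in EZH2i and 468 in the combination. The ratio of pooled CPM was 215 in the combination (95% exact counting interval 59.2 to 1780, without the spread between plates). With at most 5 counts in any library without EZH2i, TNC too passed the filter only through libraries that had received it. A minimum of 10 counts in every library left 12 of the mesenchymal genes. Of these, 11 rose and 0 fell in the combination by edgeR, beside 10498 of 13359 genes called. That minimum removed COL5A1, which had 124 counts in DMSO and 41 in the combination, with 7 in combination replicate C. The 0 is therefore partly set by the filter.

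Among 19 other transcription factors linked to EMT, 13 were tested. Of these, 9 rose and 1 fell in EZH2i, beside 64.1% of all genes called. In the combination 7 rose and 1 fell, beside 73.2%. With at least 10 counts required in every library, 11 were left and their median log2 difference in the combination went from 0.47 to 0.21. Of those 11, 7 rose and 1 fell in EZH2i (9332 of 13359 genes called), and 5 rose and 1 fell in the combination (10498 of 13359). In the combination FOXC1, a forkhead factor, rose by 3.36, SOX9 by 3.24 and SOX4 by 2.65, both SOX-family factors, and TCF3, the E-protein partner of TWIST, fell by 0.38. Of the 9 paralogs of the members, 7 were tested, with 3 called higher and 2 lower in the combination, beside 73.2% of all genes called. At the stricter minimum 3 paralogs were left, 2 called higher and 1 lower, beside 10498 of 13359 genes called. ESRP2, the other epithelial splicing regulator, moved opposite to ESRP1 in the combination, falling by 0.53 (SE 0.07, adjusted p = 1.8e-08), with an interaction of -0.29 (adjusted p = 0.025). That interaction lost its call without DMSO replicate B (-0.27, adjusted p = 0.064), AKTi replicate C (-0.20, 0.17), EZH2i replicate C (-0.26, 0.078) or combination replicate C (-0.21, 0.11). OVOL2 rose by 0.39 (SE 0.136, adjusted p = 0.011) and GRHL1 by 0.28 (SE 0.0964, adjusted p = 0.0084), with interactions of 1.17 (adjusted p = 1.9e-05) and 0.83 (1.8e-05). PRPH, a filament paralog of VIM found in neurons, rose by 2.38 (SE 0.335, adjusted p = 7.3e-08).

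The 13 splicing and corepressor partners were all tested, and 5 rose while 6 fell in the combination, beside 73.2% of all genes called. By library size 7 rose and 5 fell. QKI, a splicing factor that favours mesenchymal isoforms, rose by 1.30, CTBP2, a corepressor that ZEB1 recruits, by 0.53 and MBNL2 by 0.52. PTBP1, a splicing repressor, fell by 1.13, and the histone deacetylases HDAC1 and HDAC2 fell by 0.81 and 0.68. CTBP1 had a log2 difference of -0.24 (adjusted p = 0.00055), which was -0.04 (adjusted p = 0.5) by library size. Of 7 antisense or divergent transcripts beside members or their paralogs, 5 were in the table and 3 were tested. All 3 rose in the combination: VIM-AS1, SNAI3-AS1 by 1.18 (SE 0.196, adjusted p = 1.8e-06) and ZEB1-AS1 by 0.52 (SE 0.161, adjusted p = 0.0045).

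**Figure D4:**
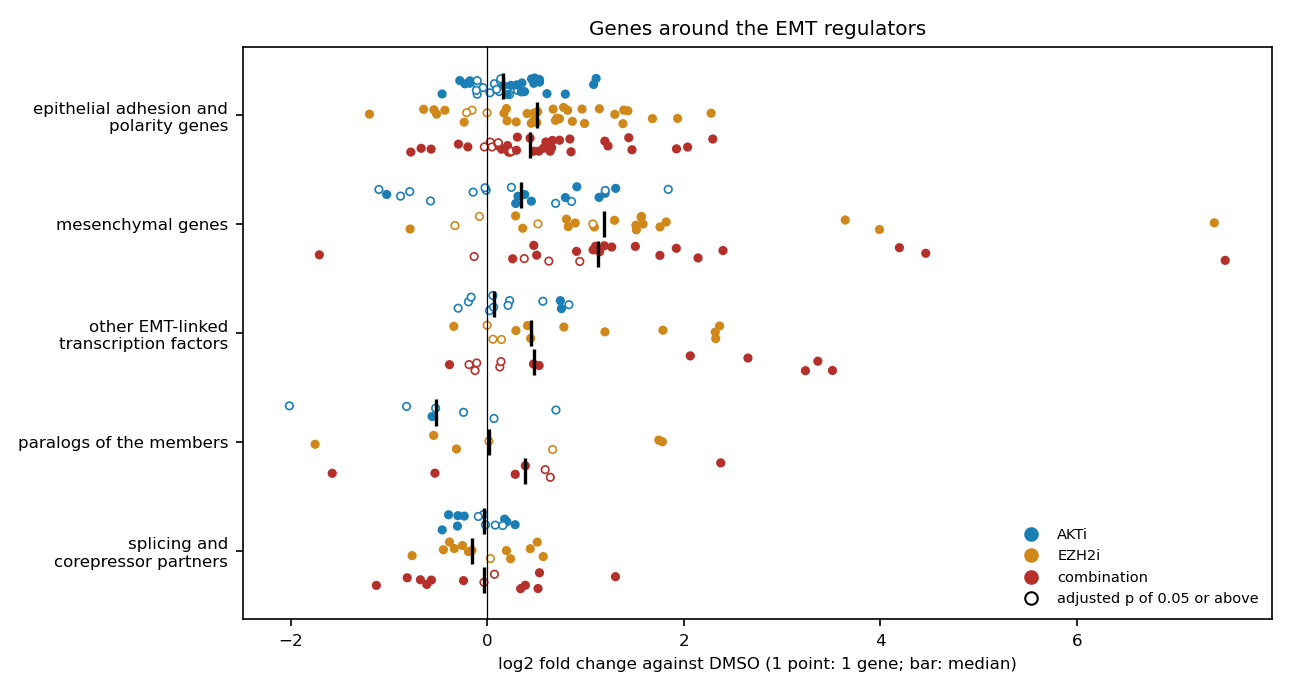
Log2 fold change against DMSO (horizontal axis) of every tested gene of 5 lists around the members (vertical axis), for AKTi, EZH2i and the combination. Each point is 1 gene, open points have an adjusted p of 0.05 or above and black bars are medians; the epithelial and the mesenchymal lists both have positive medians in all 3 arms, and the far-right mesenchymal points are TNC, whose fitted value depends on the prior count because DMSO had 2 counts.

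As a description over the 12 libraries, which share arms, the tested genes whose log2 CPM followed each member most closely were named. For VIM these were VGLL4 (Pearson r = 0.998) and FOSL2 (0.997), for ESRP1 SESN2 (0.99) and DDIT3 (0.986), and for SNAI1 GLYATL2 (0.954) and TTC38 (0.942). GRHL2 was followed by PRMT9 (0.973) and BTN2A2 (0.953), OVOL1 by LINC02572 (0.935) and RBM11 (0.911), TWIST1 by CLCF1 (0.974) and AP003498.2 (0.968), and SNAI2 by FOXJ3 (0.94) and KAT7 (0.939). Among the members themselves, the highest r was 0.867 between TWIST1 and VIM, and the lowest was -0.835 between SNAI1 and VIM. GRHL2 and ESRP1, the most abundant members, had r = -0.245.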

How the data were processed

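RNA-seq libraries (4 arms, 3 libraries each) were grouped by their sample titles. The authors aligned reads to hg38 with STAR and counted them on genes with HTSeq, and deposited raw counts of 58735 genes. A second deposited table gives normalized signal values, made by the authors with DESeq2. For 56994 gene names found once, each was checked to be the count over a library-wide size factor, and it was not used further. A deposited column of gene lengths belongs to no sample and was used for TPM. Tool versions, the annotation, the strand setting and which centre sequenced which library are not given in the sources used here.

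Counts were analysed in R 4.3.3 with edgeR 4.0.16. Genes were kept by filterByExpr (minimum count 10, minimum total 15), which left 16646, and libraries were scaled by TMM. The quasi-likelihood test used all 12 libraries and a mean for each arm, with Benjamini-Hochberg adjustment over all genes tested at a threshold of 0.05. The study's methods used DESeq2, kept here as an alternative (DESeq2 1.42.0). CPM used TMM-scaled library sizes. Exact permutation of 3 libraries against 3 cannot give a two-sided p below 0.1, so none is reported. Same-lettered libraries of different arms did not deviate together (r from -0.058 to 0.069), so letters were not used as pairs.

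Some items of the luminal marker list are not reported here. The members, gene lists and tests were chosen with earlier results of these data known, and lists were written from general knowledge. All 10 members are named. Of each list, the 3 largest rises and 3 largest falls in the combination were named among called genes with a mean of at least 1 log2 CPM, together with CDH1, CDH2, EPCAM, FN1, ESRP2, OVOL2, GRHL1, CTBP1 and the antisense transcripts, and for each tested member the 2 tested genes with the highest correlation (log2 CPM, prior count 2). On simulated data (16169 genes) the test recovered 157 of 197 genes changed by 1 on the log2 scale in the combination. It made 11 false calls. Of the interactions it recovered 138 of 197, with 10 false calls. Only the combination arm was changed there, in a small share of genes drawn at random to rise or fall. In these libraries 73.2% of genes were called in the combination against DMSO, so the simulation does not give their false calls. Alternatives were DESeq2, other scalings and filters, the compared arms alone, a block on the letter, and leaving out each library.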

Additional observations from a re-analysis of the deposited data

Results flagged for a closer look

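The effect of AKTi on ESRP1 differed with and without EZH2i by 1.22 on the log2 scale (edgeR interaction, SE 0.0782, adjusted p = 6.2e-15). ESRP1 was marked because the effect turned from -0.30 in AKTi against DMSO to 0.92 in the combination against EZH2i. The arms compared did not overlap in CPM in either case. The gap ranged from 1.16 to 1.27 over 18 alternatives and stayed called in all of them.

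The effect of AKTi on GRHL2 differed by -0.22 (SE 0.0739, adjusted p = 0.024). The gap ranged from -0.28 to -0.17 over 18 alternatives, with adjusted p from 0.004 to 0.14. SNAI1, SNAI2, TWIST1, VIM and OVOL1 did not pass the same test, which does not show that their effects were equal.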

How the results depend on the processing

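Of 901 values of tested members under an alternative, 832 kept their direction and their side of the threshold, 31 lost a call, 13 gained one and 25 turned direction, all 25 in comparisons that were not called. VIM and ESRP1 kept every call against DMSO under all alternatives. SNAI1 in AKTi against DMSO turned to 0.045 by library size and 0.044 by upper quartile. The number of members called fell from 4 to 2 for the combination against EZH2i by upper quartile, and from 2 to 1 for the interaction when all genes with at least 1 count were tested. Leaving out 1 library at a time gave 3 to 6 members called for EZH2i against AKTi (3 without EZH2i replicate C), 1 to 2 for the interaction, and for AKTi against DMSO log2 values of -0.36 to 0.22 for SNAI1, -0.81 to 0.40 for SNAI2 and -3.26 to 2.07 for TWIST1, which turned without DMSO replicate B, when no DMSO count was left. It gave -0.02 to 0.046 for GRHL2 in the combination against AKTi, -0.31 to 0.46 for SNAI2 and -0.035 to 0.21 for OVOL1 in the combination against EZH2i, and -0.045 to 0.003 for ESRP1 in EZH2i against AKTi. For the interaction it gave -0.17 to 0.10 for VIM, -0.19 to 1.02 for SNAI2 and -1.71 to 3.62 for TWIST1. TWIST1 log2 values depend on the prior count. The cause of these changes was not tested.

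With a replicate block, the letters A to C as a term, the combination against DMSO had 12146 calls against 12186 without it, and the block changed no call of a member in any comparison. Of 12 libraries, 4 were closest to libraries of their own letter. A minimum of 10 counts in every library left SNAI2 and TWIST1 without a value. ZEB1, ZEB2, TWIST2, SNAI2 and TWIST1 are limited by depth.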

Other observations

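MIR200CHG, the host transcript of miR-200c and miR-141, was looked up after its values were seen because these microRNAs repress ZEB1 and ZEB2. It had 31, 29 and 48 counts in replicates A, B and C of DMSO, 52, 51 and 42 in AKTi, 77, 63 and 66 in EZH2i and 65, 103 and 76 in the combination. Its log2 difference from DMSO was 0.64 in AKTi (edgeR adjusted p = 0.045), 0.84 in EZH2i (0.0041) and 1.07 in the combination (0.00024). PolyA libraries count the host transcript and not the mature microRNAs, whose RefSeq sequences are given 5′ to 3′ with the seed, bases 2 to 8, in capitals to show that the seeds differ.
hsa-miR-200c-3p: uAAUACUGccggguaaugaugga
hsa-miR-141-3p: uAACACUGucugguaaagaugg
MIR205HG, the host of another microRNA that represses ZEB1 and ZEB2, had 0 counts in all 12 libraries, and ZEB2-AS1 also had 0.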
